A study of Mus musculus with 6 samples.

Results

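The abundant long noncoding RNAs (lncRNAs) of inguinal white adipose tissue, the subcutaneous fat of the groin, were taken as every row of biotype lncRNA whose mean over the 6 libraries was at least 10 TPM, leaving out H19 and Meg3. TPM is a transcript level divided by transcript length and scaled to the same total in each library. The rule gave 179 lncRNAs of 11720 rows of that biotype and of 57180 rows in all. The members were chosen by their mean TPM over these same libraries, so the levels themselves are given as a description. The members nearest to the threshold were 2610035D17Rik (mean 10.1 TPM) and 1810044D09Rik (10.03 TPM), and the lncRNAs just outside it were 3110045C21Rik (9.93 TPM) and Gm15972 (9.84 TPM). Of the 179, 86 carry a predicted name of Gm and a number and 8 have no name and are given by identifier.

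The tissue came from male wild-type (WT) mice fed for 12 weeks on a high-fat diet (HFD, 3 samples) or on a high-fat diet with 0.5% hesperidin, a flavonoid glycoside of citrus peel (HEP, 3 samples). All 6 libraries carry batch label 1 and are called HFD1 to HFD3 and HEP1 to HEP3 here, after their labels. The labels give neither strain nor age, and nothing in them says that the samples were separate animals: p-values here reflect only how these 6 libraries vary, which may be technical. Other arms of the series (control diet, bacterial sequencing, metabolites in serum) were not analysed here.

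Long noncoding RNAs are transcripts longer than the classes of small RNA and are not annotated as protein templates. Some stay in the nucleus, where Neat1 is the scaffold of paraspeckles and Malat1 gathers in nuclear speckles, the stores of splicing factors. Others act in the cytoplasm, serve as the spliced remains of genes whose introns carry small nucleolar RNAs (snoRNAs) or microRNAs, or are transcribed across from a coding gene. The biotype also holds copies of coding genes and transcripts with stretches of retroelements, and the annotation behind a table decides which of these it counts as lncRNA.

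The libraries did not hold the same mix of tissue. Summed over 10 B and plasma cell markers, the level was 9.29, 8.83 and 641 TPM in HFD1 to HFD3 and 1232, 9.34 and 1333 TPM in HEP1 to HEP3. HFD3, HEP1 and HEP3 thus stood apart, and 10 T and NK cell markers followed the same split (505.6 to 748 TPM against 8.16 to 20.8 TPM). The 10 adipocyte markers, all found, summed to 29000 to 51070 TPM, lowest in those 3 libraries, and Fabp4, Adipoq and Plin1 were high throughout, as the tissue label says. HEP2 was rich in 10 skeletal muscle markers (14890 TPM against 41.8 to 1676 TPM elsewhere), and HFD1 and HEP2 in 8 liver-type markers (1750 and 2719 TPM). Ribosomal RNA rows summed to 23240 TPM in HFD2 and 1736 to 5437 TPM elsewhere. Depth was unknown because TPM keeps none, and between 3609 and 4600 lncRNA rows per library lay above 0. In bulk tissue, fewer cells of a type and less RNA per cell cannot be told apart.

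Together the 179 lncRNAs held 9256, 8687 and 11230 TPM in HFD1 to HFD3 and 15650, 8453 and 13840 TPM in HEP1 to HEP3, which is 0.845% to 1.57% of a library and 70.3% to 76.4% of all lncRNA TPM. HEP1 and HEP3 were highest and HEP2 was lowest, so the HEP values spanned the HFD range. The group means were 9724 ± 1334 TPM (SD, n = 3) in HFD and 12650 ± 3745 TPM (SD, n = 3) in HEP. Over all lncRNA rows, members or not, the sum was 13280 ± 1604 TPM on HFD and 17150 ± 4932 TPM on HEP. That difference of 3870 TPM gave an exact two-sided permutation p of 0.3, where 3 samples against 3 cannot go below 0.1. Without HEP1 it was 1679 TPM, and without HEP2 it was 6540 TPM.

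A few members made up most of this level. The 12 with the highest mean held 47.0% to 57.6% of the members' TPM in each library, while the median member had a mean of 21.2 TPM. The members were sorted after their values had been seen, by host names and by keywords in the deposited descriptions and protein matches. This gave 14 copies of coding genes, 26 with a match to a retroelement protein and 11 named hosts of snoRNAs or microRNAs. There were 10 named antisense transcripts and 118 others. Copies of coding genes held 2396, 3000 and 4981 TPM on HFD and 5844, 2800 and 6688 TPM on HEP. Retroelement matches held 1302, 1334 and 1736 TPM on HFD and 2963, 1383 and 2609 TPM on HEP. Both classes were highest in HEP1 and HEP3, followed by HFD3. The 118 others were highest in the pair of libraries numbered 1, with 4917 TPM in HFD1 and 5978 TPM in HEP1 against 3699 to 3852 TPM in the rest. Without Neat1 and Malat1, the remaining 116 summed to 3397, 3391 and 3341 TPM in HFD1 to HFD3 and 4331, 3273 and 3379 TPM in HEP1 to HEP3, so that only HEP1 stood above the others.

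**Figure D1:**
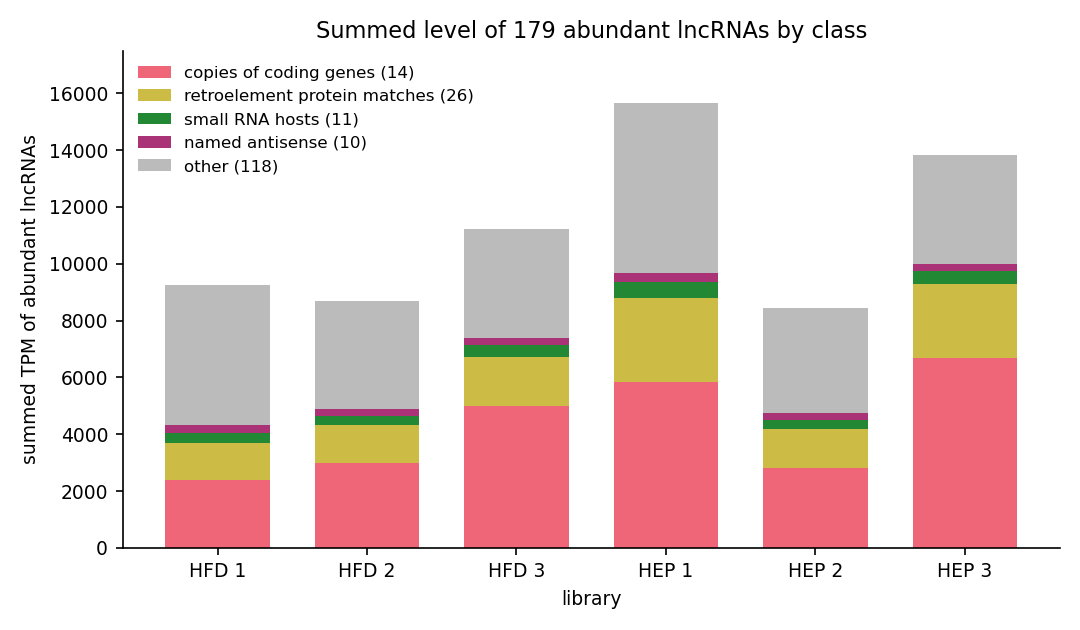
Summed TPM (vertical axis) of the 179 abundant lncRNAs in each of the 6 libraries, stacked by class. The total runs from 8453 TPM in HEP2 to 15650 TPM in HEP1, and copies of coding genes range from 2396 TPM in HFD1 to 6688 TPM in HEP3.

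HEP was compared with HFD in limma over all 15446 genes whose mean reached 1 TPM, on log2(TPM + 1), a scale that understates the change of low genes. No member passed the Benjamini-Hochberg threshold of 0.05 (0 of 179, smallest adjusted p 0.879), and neither did any gene (0 of 15446, 0.0%, smallest adjusted p 0.78). At an unadjusted p under 0.05 there were 12 members (6.70%), 9 higher and 3 lower in HEP, beside 279 of all genes (1.81%; 0.68% higher and 1.13% lower) and 20 of the 1051 other lncRNAs tested (1.9%). HEP and HFD values did not overlap for 17 members (9.50%), beside 843 of all genes (5.46%) and 60 of the other lncRNAs (5.71%). Of those 17 members 10 were higher (all genes 1.88%) and 7 lower (all genes 3.58%). Among the 10, Gm12319 and 1700113A16Rik had HFD means of 4.18 and 9.67 TPM, so they met the 10 TPM rule only through HEP. The same held for 2310001H17Rik (HFD mean 9.05 TPM), 1 of the 9 higher at an unadjusted p under 0.05. All 7 lower members had HEP means above 10 TPM. The split into higher and lower counts thus depends in part on the rule that chose the members. None of these counts is a call, and they depended on single libraries. Without HEP2 64 members were at an unadjusted p under 0.05 (35.8%, all genes 23.8%), and without HEP1 only 2 were (1.12%, all genes 0.913%).

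The HEP mean was the higher one for 115 of 179 members (64.2%), beside 9057 of all genes (58.6%) and 715 of the other lncRNAs (68.0%). The median log2 fold change was 0.16 over members (quartiles -0.13 and 0.49), 0.07 over all genes and 0.17 over the other lncRNAs, with a median standard error of 0.28 over members. Members above 0 in every library ran from -0.76 (9630013D21Rik) to 2.07 (Gm26740). The members' median was 0.02 without HEP1 and 0.28 without HEP2, where that of all genes was -0.03 and 0.13. Quantile normalization moved the median of all genes from 0.07 to -0.06 and the split of members to 97 higher and 82 lower. Relative to the median of all genes, the members' median was 0.09 as deposited and 0.10 after quantile normalization. By class, 24 of 26 retroelement matches had a higher HEP mean (median 0.55), as did 9 of 14 copies (0.21), 9 of 11 hosts (0.29), 5 of 10 antisense members (0.01) and 68 of 118 others (0.07). The count for retroelement matches stayed at 24 under each of the 3 other scalings, while that for the others fell to 51 with quantile normalization. Single libraries moved the class medians. Without HEP1 the median was 0.35 for retroelement matches (24 of 26 higher), 0.06 for copies (7 of 14), 0.15 for hosts (7 of 11) and -0.10 for others (52 of 118). Without HEP2 it was 0.91 for retroelement matches (26 of 26), 0.50 for copies (11 of 14) and 0.47 for hosts (9 of 11).

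Neat1 and Malat1 are the best known members and were also among the most abundant. Neat1 (ENSMUSG00000092274) was at 977, 291 and 286 TPM on HFD and at 957, 312 and 254 TPM on HEP. Its values in HFD1 and HEP1 stood far above the other 4, which lay close together, and the groups overlapped. Malat1 (ENSMUSG00000092341) was at 542, 106 and 218 TPM on HFD and at 691, 114 and 219 TPM on HEP. It too was highest in both libraries numbered 1 and lowest in both numbered 2. The first library exceeded the mean of the other 2 of its group by 3.39-fold in HFD and 3.38-fold in HEP for Neat1, and by 3.34-fold and 4.15-fold for Malat1. Against that spread, the log2 fold change of HEP against HFD was -0.03 ± 0.68 (SE) for Neat1 and 0.15 ± 0.82 for Malat1, with 95% intervals of -1.67 to 1.60 and -1.82 to 2.13. Both intervals include changes of more than 2-fold in either direction. With both libraries numbered 1 left out, an alternative chosen after seeing the data, the values were -0.03 ± 0.20 (SE) for Neat1 and 0.06 ± 0.54 for Malat1.

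In all, 21 members (11.7%) were highest in both libraries numbered 1, beside 1100 of all genes (7.12%) and 191 of the other lncRNAs (18.2%). Firre, an X-linked nuclear RNA built of repeats, was at 37.2, 13.5 and 15.7 TPM on HFD and 31.6, 14.2 and 12.9 TPM on HEP. A530020G20Rik and AI480526, picked out after their values were seen, were also highest in these libraries. A530020G20Rik was at 31.1, 5.91 and 6.07 TPM on HFD and 25.2, 9.07 and 4.72 TPM on HEP. AI480526 was at 17.7, 3.64 and 8.25 TPM on HFD and 37.1, 7.62 and 15.1 TPM on HEP. Lymphocyte markers were low in HFD1 and high in HEP1, and the labels give the same batch for all 6 libraries. Ribosomal RNA rows were at 2234 and 3648 TPM in HFD1 and HEP1 (1736 to 23240 TPM elsewhere). Histone genes were at 725 and 522 TPM there (486.5 to 861 TPM elsewhere). Mitochondrially encoded protein genes were highest in HFD1 (227800 TPM) and lowest in HEP1 (137300 TPM). What lay behind the shared order of HFD1 and HEP1 was not tested.

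Not every nuclear or regulatory lncRNA varied like this. Norad, a cytoplasmic RNA that binds Pumilio proteins, was at 63.0, 76.4 and 71.8 TPM on HFD and 89.3, 65.9 and 77.5 TPM on HEP. Oip5os1, known as Cyrano and as the trigger of miR-7 decay, was at 70.2, 64.7 and 72.0 TPM on HFD and 84.6, 64.6 and 75.9 TPM on HEP. Both varied little over the 6 libraries and were highest in HEP1, with log2 fold changes of 0.13 ± 0.16 and 0.11 ± 0.15 (SE). Oip5os1 was still higher in HFD3, HEP1 and HEP3 than elsewhere, as the lymphocyte markers were. Peg13, an imprinted RNA made from the paternal allele, was at 19.6, 26.1 and 21.5 TPM on HFD and 29.2, 21.6 and 21.5 TPM on HEP. Rian, from the maternally expressed cluster that also holds Meg3, was at 21.4, 14.6 and 9.92 TPM on HFD and 13.8, 10.6 and 7.07 TPM on HEP, with groups that overlapped.

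**Figure D2:**
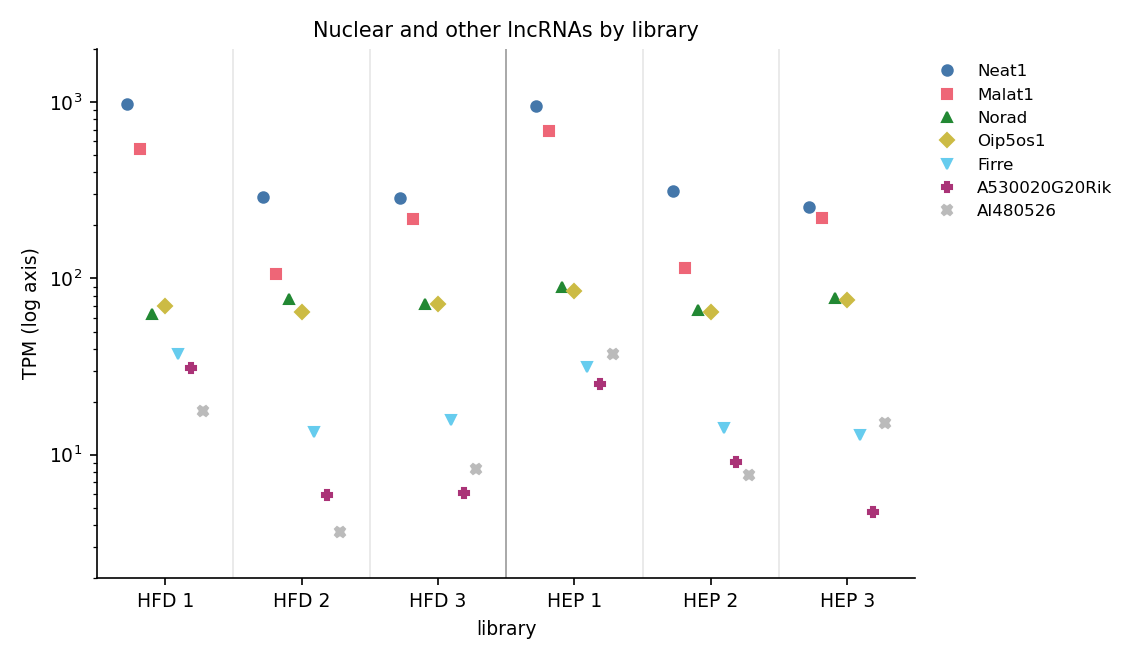
TPM on a log axis for 7 lncRNAs, 1 symbol each, in the 6 libraries. Neat1, Malat1, Firre, A530020G20Rik and AI480526 are highest in HFD1 and HEP1, whereas Norad and Oip5os1 stay between 63.0 and 89.3 TPM.

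The promoters of Malat1 and Firre are shown because these members shared that order. They are RefSeq windows of 300 bases on GRCm38.p6, from 250 before to 50 after the start, both on the minus strand. Malat1 lies at chr19:5802623-5802922 and Firre at chrX:50635272-50635571, and capitals mark the E-box letters CACGTG.
Malat1: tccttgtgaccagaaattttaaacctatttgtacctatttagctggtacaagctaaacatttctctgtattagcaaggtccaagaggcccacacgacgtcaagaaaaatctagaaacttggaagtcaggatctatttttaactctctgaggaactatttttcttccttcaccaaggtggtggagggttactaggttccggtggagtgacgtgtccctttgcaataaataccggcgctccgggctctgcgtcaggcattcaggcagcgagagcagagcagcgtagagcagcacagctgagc
Firre: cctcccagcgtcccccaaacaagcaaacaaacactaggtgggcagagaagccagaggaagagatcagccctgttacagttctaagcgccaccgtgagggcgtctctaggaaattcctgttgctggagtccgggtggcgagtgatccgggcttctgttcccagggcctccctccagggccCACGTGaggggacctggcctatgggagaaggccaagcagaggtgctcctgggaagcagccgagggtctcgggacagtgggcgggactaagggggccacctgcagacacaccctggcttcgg
Both strands were searched for the TATA box TATAAA, for CCAAT, for the ETS core CCGGAAG, for the E-box, for 1 form of the NRF1 motif, 1 form of the YY1 motif and a CGCG palindrome. The Malat1 window held none of these 7, and the Firre window held the E-box only. Over the 73 members with a RefSeq promoter, the share with a motif was close to that of all 27025 genes in the table for most motifs. CACGTG was found for 8.22% of members and 8.09% of all genes, CCAAT for 42.5% and 41.1%, and TATAAA for 15.1% and 15.7%. The ETS core was found for 12 members (16.4%) and 9.93% of all genes. These are matches of letters, not binding sites.

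The proteins that work with these RNAs were summarised from lists of coding genes. The HEP mean was the higher one for all 16 paraspeckle protein genes (median log2 fold change 0.23, 0 past the threshold), and quantile normalization left 14 higher. Hnrnpa1 was at 114, 134 and 221 TPM on HFD and 294, 124 and 314 TPM on HEP, with HEP2 inside the HFD range. Of 22 speckle and splicing factor genes, 21 had a higher HEP mean (median 0.24), and 6 shared the order of Malat1 with both libraries numbered 1 highest. All 15 genes of nuclear RNA decay and m6A marking had a higher HEP mean (median 0.20), 11 of them after quantile normalization. None of these genes reached an unadjusted p under 0.05. Many were higher in HFD3, HEP1 and HEP3 than elsewhere (11 of 16, 11 of 22 and 11 of 15, all genes 30.5%), as the lymphocyte markers were. Over all genes, 58.6% had a higher HEP mean and 7.12% were highest in both libraries numbered 1. Leaving out both libraries numbered 1 left 9 of 16, 11 of 22 and 5 of 15 higher in HEP.

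Of the list of named nuclear and regulatory noncoding RNAs, 32 were tested, 12 of them members. A higher HEP mean was found for 18 of the 32 (median 0.07), beside 58.6% of all genes, and for 15 after quantile normalization. The member Hotairm1 was at 22.3, 18.5 and 18.5 TPM on HFD and 12.7, 22.0 and 11.7 TPM on HEP. Its groups overlapped, and its log2 fold change was -0.38 ± 0.26 (SE). Rn7sk, the RNA that holds back the elongation factor P-TEFb and is listed as misc_RNA and not as lncRNA, had an unadjusted p of 0.0111 in limma. It was at 44.7, 88.5 and 56.3 TPM on HFD and 32.5, 32.0 and 19.2 TPM on HEP, lower in every HEP library, with an adjusted p of 0.879. Biotype kept some familiar RNAs out of the 179. Tug1 was listed as protein_coding, Gas5 and Snhg8 as retained_intron, and Xist did not exceed 0.03 TPM in these male samples.

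Host genes of snoRNAs make a spliced RNA whose introns are processed into snoRNAs, the guides of ribosomal RNA modification, and many of them begin transcription in a run of pyrimidines like ribosomal protein genes. This list held 9 members. Snhg1 was at 35.6, 31.4 and 62.4 TPM on HFD and 85.5, 35.2 and 78.2 TPM on HEP. Zfas1, which is antisense to Znfx1, was at 32.6, 28.5 and 48.0 TPM on HFD and 67.1, 33.4 and 71.1 TPM on HEP. Snhg12 was at 29.2, 26.1 and 44.3 TPM on HFD and 52.1, 29.0 and 45.8 TPM on HEP. All 3 were higher in HFD3, HEP1 and HEP3 than in the other 3 libraries, and their groups overlapped. Snhg3 (47.3 to 68.3 TPM on HFD, 57.1 to 81.2 TPM on HEP) and Epb41l4aos (12.4 to 18.1 TPM and 15.3 to 20.1 TPM) had that order too.

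Snhg18 had the opposite order, with 26.8, 24.9 and 18.4 TPM on HFD and 17.9, 23.7 and 15.1 TPM on HEP. Snhg6 stayed between 27.2 and 33.8 TPM in all libraries. Snhg5 and Snhg20 were highest in HEP1, at 35.0 and 42.0 TPM, and both were highest in HFD1 within HFD. The log2 fold changes of the 9 ran from -0.30 ± 0.23 (SE) for Snhg18 to 0.60 ± 0.34 for Zfas1. Over the whole host list, 18 of 22 rows tested had a higher HEP mean (16 after quantile normalization), beside 58.6% of all genes. The median was 0.36, 0 passed, and 0 were at an unadjusted p under 0.05. Gas5, on the list but no member, was at 316, 295 and 498 TPM on HFD and 556, 333 and 635 TPM on HEP. The snoRNAs of Gas5 introns could not be followed, since the 3 found in the table were listed at 0 in every library.

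**Figure D3:**
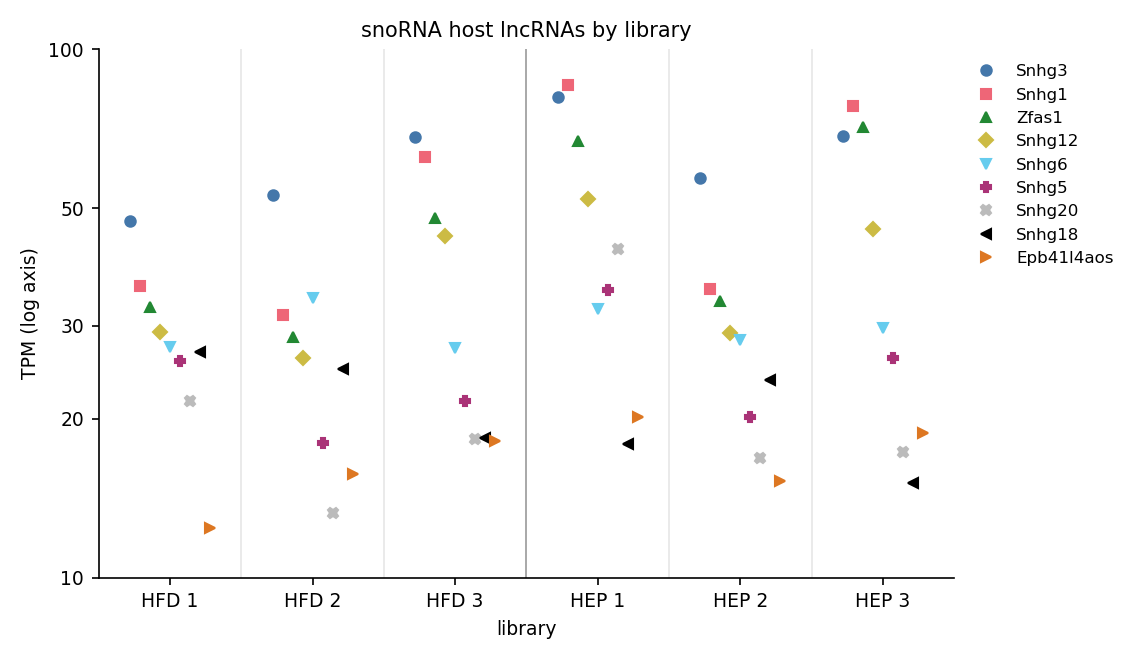
TPM on a log axis of the 9 snoRNA host lncRNAs in the 6 libraries, 1 symbol each. Snhg1, Zfas1 and Snhg12 are higher in HFD3, HEP1 and HEP3, Snhg18 is lower there, and Snhg6 stays between 27.2 and 33.8 TPM.

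The starts of 4 hosts are printed because these genes took opposite courses across the libraries. Each window runs from 20 bases before the RefSeq start (GRCm38.p6) to 40 after it, and capitals mark the longest run of a C and at least 4 more pyrimidines within 20 bases of the start. Snhg12 is at chr4:132308658-132308717 on the plus strand, Snhg18 at chr15:32244623-32244682 on the minus strand, Snhg1 at chr19:8723467-8723526 and Zfas1 at chr2:167062914-167062973, both on the plus strand.
Snhg12: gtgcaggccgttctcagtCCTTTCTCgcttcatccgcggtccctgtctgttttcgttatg
Snhg18: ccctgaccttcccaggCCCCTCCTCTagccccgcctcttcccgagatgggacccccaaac
Snhg1: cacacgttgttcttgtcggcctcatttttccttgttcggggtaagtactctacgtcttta
Zfas1: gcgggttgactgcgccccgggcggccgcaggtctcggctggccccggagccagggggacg
Snhg12, higher with the lymphocyte markers, and Snhg18, lower with them, both held such a run across the start, of 8 and 10 bases. Snhg1 and Zfas1 held none by this definition at the RefSeq start. A run was found for 4 of 7 host members in the promoter table (57.1%), beside 49.9% of all genes. With 7 hosts and a pattern this common, the count cannot say whether such runs set the hosts apart.

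Which members followed the lymphocyte markers was described for all 179. In 62 members (34.6%) HFD3, HEP1 and HEP3 were all higher than the other 3 libraries, beside 4704 of all genes (30.5%), and in 22 members (12.3%) all lower, beside 2109 of all genes (13.7%). The 3 libraries include 2 of HEP and 1 of HFD, so this split and the diets partly coincide. The part of these markers in the members' group differences was not tested. Several of these members, named after their values were seen, were nearly absent elsewhere.

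Mir142hg, the host of the blood cell microRNA miR-142, was at 2.09, 2.15 and 43.0 TPM on HFD and 82.9, 1.34 and 62.8 TPM on HEP. The lowest of its high values thus lay far above the highest of its low ones, in both groups, and its fitted log2 fold change was 1.62 ± 1.67 (SE). Ccl19-ps2, a pseudogene of the lymph node chemokine Ccl19, was at 0.84, 4.77 and 72.7 TPM on HFD and 62.2, 1.89 and 48.4 TPM on HEP. Gm56536, whose deposited protein match is an immunoglobulin mu chain, was at 0.89, 1.36 and 14.6 TPM on HFD and 32.6, 1.59 and 28.7 TPM on HEP. Gm2682, with a match to an L1 retroelement, was at 0.47, 0.48 and 29.2 TPM on HFD and 53.3, 0.35 and 50.2 TPM on HEP. ENSMUSG00000121501, with a match to an interferon-induced GTPase, was at 6.05, 7.73 and 30.6 TPM on HFD and 61.0, 5.48 and 52.9 TPM on HEP. In the libraries low in lymphocyte markers, these 5 members were at 0.47 to 7.73 TPM in HFD1 and HFD2 and at 0.35 to 5.48 TPM in HEP2.

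The mature microRNAs of the 2 members described as microRNA host genes are shown. Capitals mark their seeds, the bases 2 to 8 that pair with targets. The levels of these microRNAs were not measured here, since the hosts' spliced RNA and the mature microRNAs are different molecules. Sequences are from RefSeq (GRCm38.p6), with miR-142a at chr11:87756867-87756887 and chr11:87756903-87756925 and miR-22 at chr11:75463734-75463755 and chr11:75463772-75463793, all on the plus strand.
mmu-miR-142a-5p: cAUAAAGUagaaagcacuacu
mmu-miR-142a-3p: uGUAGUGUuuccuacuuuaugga
mmu-miR-22-5p: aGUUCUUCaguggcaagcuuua
mmu-miR-22-3p: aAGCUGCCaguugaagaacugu
The 4 seeds all differ. Mir22hg, the host of the second pair, did not follow the lymphocyte markers. It was at 66.7, 45.3 and 37.9 TPM on HFD and 51.7, 51.3 and 24.7 TPM on HEP, highest in the library numbered 1 of each group. In GENCODE M21 it shares 206 exon bases on the same strand with Tlcd2.

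A pair of more abundant members followed the same split. AW112010, known as an RNA induced in immune cells by inflammatory signals, was picked out after its values were seen. It was at 127, 146 and 218 TPM on HFD and 252, 157 and 258 TPM on HEP. The RNA 2410006H16Rik was at 39.6, 48.6 and 89.7 TPM on HFD and 101, 48.8 and 118 TPM on HEP, with a log2 fold change of 0.58 ± 0.43 (SE). HEP2 lay inside the HFD range for both. Members lower with the lymphocyte markers were highest in HFD1, HFD2 and HEP2, where the adipocyte sum was also highest. The examples given next were picked out after their values were seen. The RNA 2610016A17Rik was at 103, 132 and 71.0 TPM on HFD and 62.0, 110.5 and 38.4 TPM on HEP. Likewise 1700047G03Rik was at 106, 181 and 86.2 TPM on HFD and 77.2, 125 and 72.4 TPM on HEP.

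**Figure D4:**
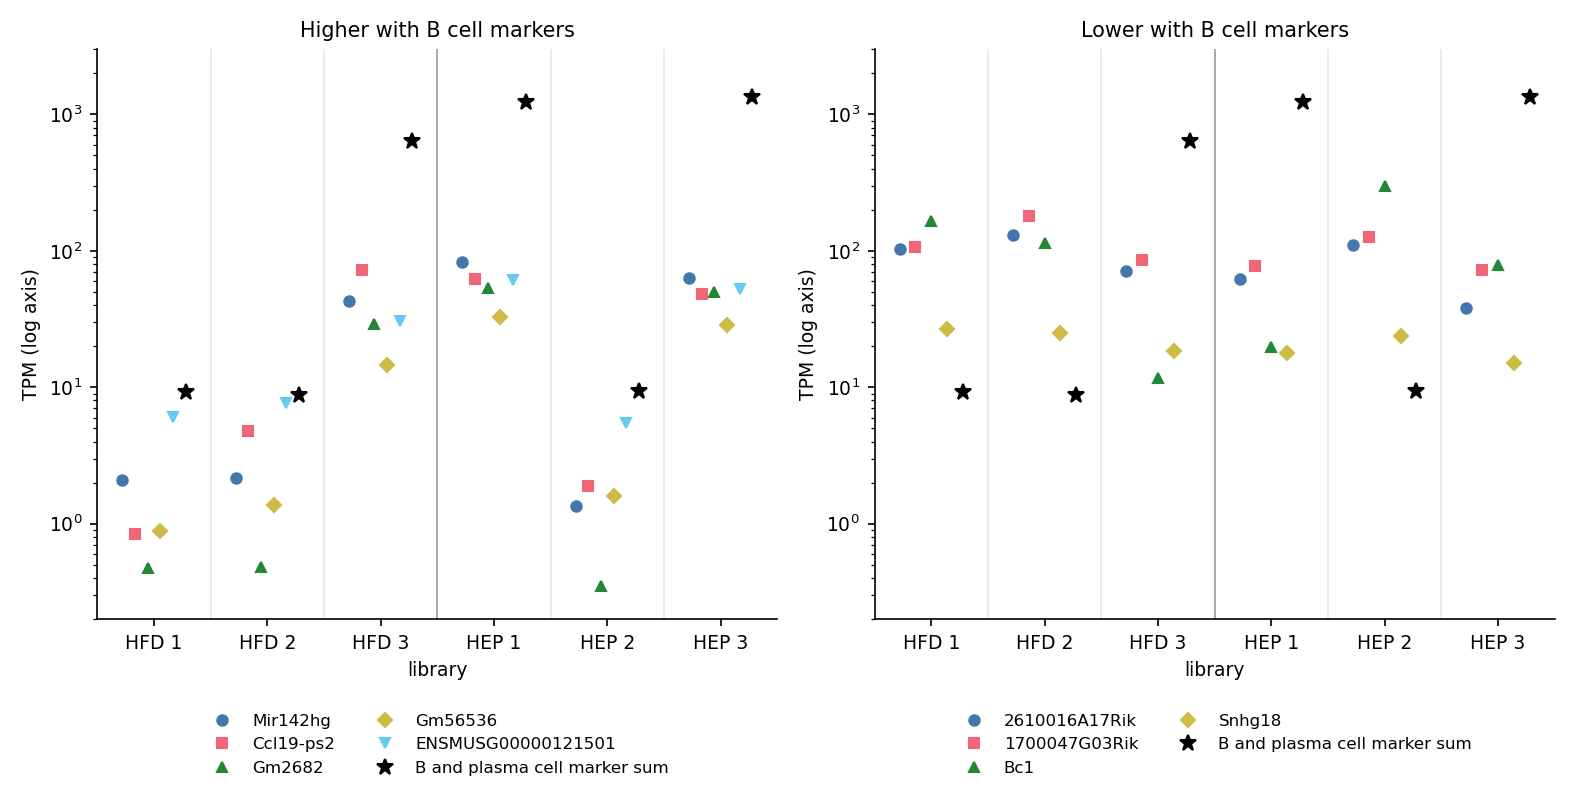
TPM on a log axis for 9 lncRNAs in the 6 libraries, with the summed TPM of 10 B and plasma cell markers as stars. Left, 5 members that are higher in HFD3, HEP1 and HEP3, such as Mir142hg with 43.0 to 82.9 TPM there and 1.34 to 2.15 TPM elsewhere. Right, 4 members that are lower in them.

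Bc1, also picked out after its values were seen, was the most variable of the lower ones. It was at 165, 114 and 11.8 TPM on HFD and 19.6, 298 and 79.2 TPM on HEP. It is a short RNA made by RNA polymerase III, known from neurons as a translation repressor. It was highest in HEP2 and lowest in HFD3, and both groups held high and low values. Its transcript, printed because it is short and carries an internal run of A (in capitals), is 168 bases long in GENCODE M21 (GRCm38, chr7:144914470-144914637, plus strand), and the run takes up 23 bases.
Bc1: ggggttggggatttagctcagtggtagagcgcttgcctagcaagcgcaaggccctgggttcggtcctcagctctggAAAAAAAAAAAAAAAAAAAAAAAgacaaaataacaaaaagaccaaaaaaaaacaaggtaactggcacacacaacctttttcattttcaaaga
The libraries were selected for 300 bp, longer than this transcript, and the labels do not state whether polyadenylated RNA was selected. What share of Bc1 was captured is thus unknown.

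Among copies of coding genes, the 3 most abundant members had the largest levels of all. ENSMUSG00000121784, with a match to ribosomal protein L12, was at 691, 872 and 2108 TPM on HFD and 2313, 770.5 and 2795 TPM on HEP. ENSMUSG00000121777, with a match to ribosomal protein L5, was at 400.4, 525 and 864 TPM on HFD and 1148, 497 and 1256 TPM on HEP. Gm15501, with a match to ribosomal protein S8, was at 358, 489 and 718 TPM on HFD and 946, 427 and 1226 TPM on HEP. All 3 were higher in HFD3, HEP1 and HEP3, and HEP2 lay within the HFD range in each. Their log2 fold changes were 0.66 in each case, with standard errors of 0.62, 0.45 and 0.45. Reads of such copies can also match the parent gene, so how the authors' estimate divided them decides these levels.

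Rpl37rt, a retrotransposed copy of the ribosomal protein L37 gene, had the smallest unadjusted p of the members. It was at 52.5, 87.0 and 136 TPM on HFD and 219, 173 and 205 TPM on HEP. All 3 HEP libraries were above all 3 HFD libraries. Within HFD it was highest in HFD3, which was rich in lymphocyte markers, and within HEP lowest in HEP2, which was low in them. The part of tissue mix in this difference was not tested. The log2 fold change was 1.20 ± 0.34 (SE; 95% interval 0.37 to 2.03; limma p 0.0117, adjusted p 0.879). The other copies differed in how much they varied. Gm6793, named after its values were seen, ranged from 93.2 to 289.6 TPM, with HFD3, HEP1 and HEP3 highest. In contrast, 3 of the most abundant copies varied little. Ubb-ps, a ubiquitin B pseudogene, stayed between 194 and 218 TPM, with a ratio of 1.12 between its highest and lowest library. ENSMUSG00000121793, with a match to an ATP synthase subunit, stayed between 236 and 294 TPM, and ENSMUSG00000121655, with a match to Sec61 gamma, between 227 and 312 TPM.

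Of the 12 most abundant members, 4 had HEP values wholly above the HFD values, and 3 of these belong to the retroelement matches. Gm20186 was at 320.5, 365 and 367 TPM on HFD and 600.0, 391 and 520.0 TPM on HEP. Gm56906 was at 263, 292 and 320.5 TPM on HFD and 498, 342 and 449 TPM on HEP. Gm56555 was at 169, 172 and 179.6 TPM on HFD and 275, 209 and 239 TPM on HEP. The fourth, Gm56730, with a match to a vomeronasal receptor, was at 177, 194 and 184 TPM on HFD and 286, 205 and 256 TPM on HEP. In all of them HEP1 was highest, HEP3 next and HEP2 just above the HFD libraries. Their log2 fold changes were 0.50 ± 0.20, 0.54 ± 0.19, 0.46 ± 0.15 and 0.41 ± 0.16 (SE), with unadjusted limma p of 0.0418, 0.0258, 0.0188 and 0.0418 and an adjusted p of 0.879 each.

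Gm55330, the last retroelement match whose groups did not overlap, was at 23.5, 28.2 and 25.2 TPM on HFD and 39.4, 30.5 and 34.5 TPM on HEP (log2 fold change 0.42 ± 0.16). Of the 26 retroelement matches, 17 were higher in HFD3, HEP1 and HEP3 than elsewhere (all genes 30.5%), and 0 were lower (all genes 13.7%). Gm56626 was at an unadjusted p under 0.05 with groups that overlapped, at 42.7 to 59.9 TPM on HFD and 55.6 to 96.7 TPM on HEP. Between the libraries low in lymphocyte markers, the summed level of the class was close, at 1302 and 1334 TPM in HFD1 and HFD2 and 1383 TPM in HEP2. Between those rich in them it was 1736 TPM in HFD3 and 2963 and 2609 TPM in HEP1 and HEP3, whose B and plasma cell markers were also higher than in HFD3. These sums include Gm48275, listed at 0 in HEP2 and at 9.81 and 39.7 TPM in HFD1 and HFD2. The part of tissue mix in the sums was not tested. Transcripts with shared repeats can share reads, so these members are not independent of each other.

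**Figure D5:**
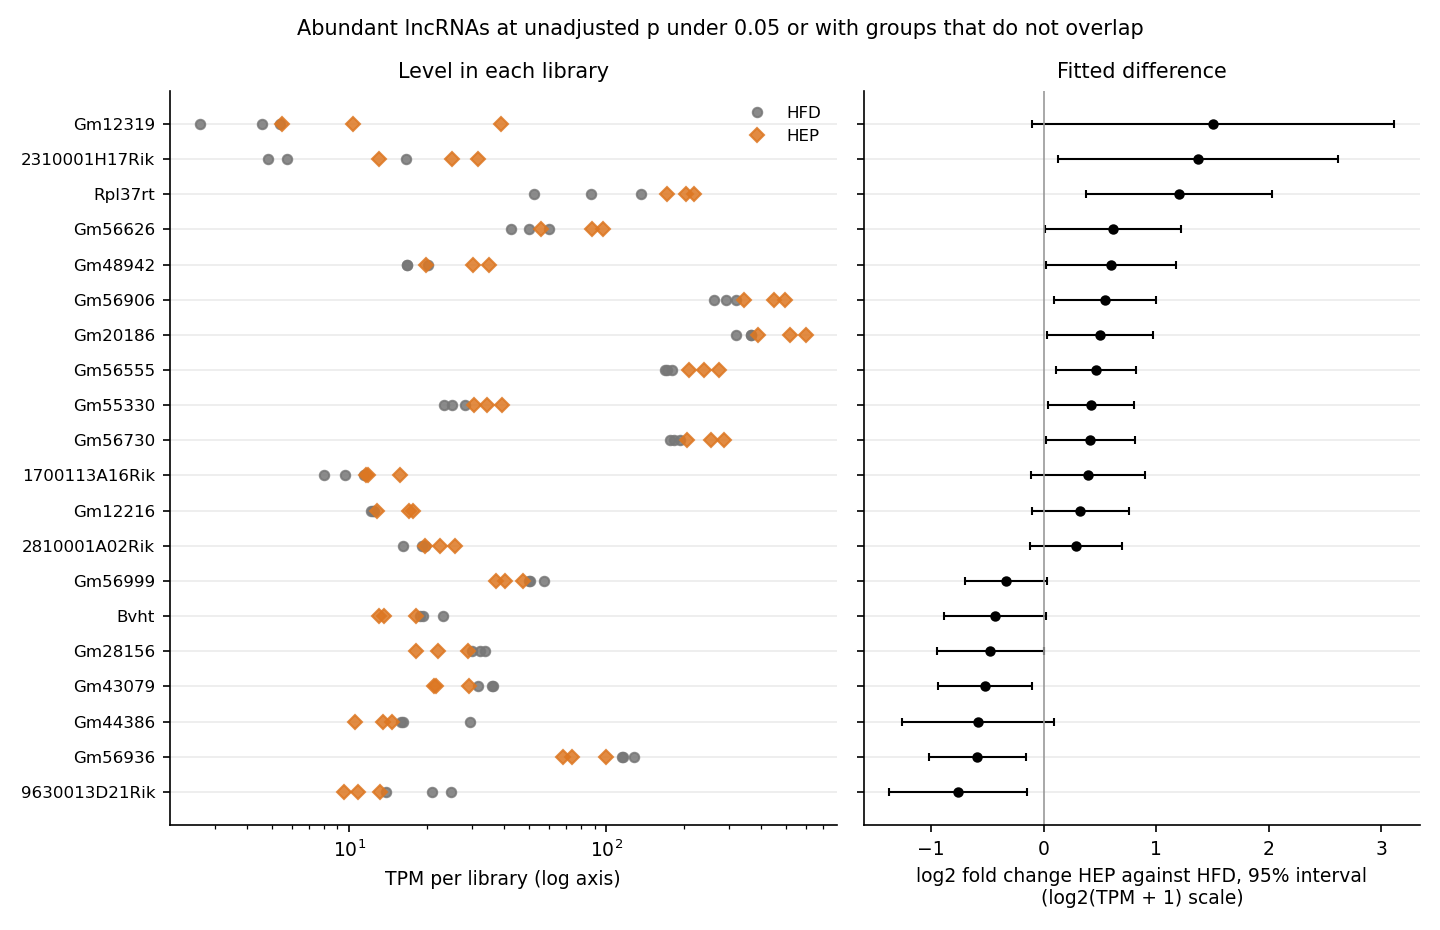
The 20 members at an unadjusted p under 0.05 or with groups that do not overlap. Left, TPM on a log axis in each HFD (circles) and HEP (diamonds) library. Right, the limma log2 fold change with its 95% interval, from -0.76 for 9630013D21Rik to 1.50 for Gm12319.

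The remaining members with wholly higher HEP values were less abundant. Gm12319, with matches to muscle enolase and profilin, was at 2.63, 4.56 and 5.36 TPM on HFD and 10.3, 38.9 and 5.50 TPM on HEP. Its highest value was in HEP2 and the next in HEP1, which were also the libraries highest in skeletal muscle markers. The part of tissue mix in this was not tested. Gm12319 passed the mean of 10 TPM only through HEP2, and its groups were parted only by 5.50 TPM in HEP3 against 5.36 TPM in HFD3. Gm12216 (12.1 to 12.5 TPM on HFD, 12.8 to 17.7 TPM on HEP), 1700113A16Rik (7.96 to 11.4 TPM and 11.6 to 15.7 TPM) and 2810001A02Rik (16.1 to 19.8 TPM and 19.8 to 25.8 TPM) were separated by narrow gaps. The RNA 2310001H17Rik had an unadjusted p of 0.0354 in limma although its groups overlapped, at 5.71, 4.81 and 16.6 TPM on HFD and 31.6, 13.03 and 25.0 TPM on HEP. Gm48942, at 16.8 to 20.3 TPM on HFD and 19.8 to 35.0 TPM on HEP, was the last of the 9 higher members at that level.

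Wholly lower HEP values were found for 7 members. Gm56936 was at 115, 128 and 116 TPM on HFD and 73.7, 99.7 and 67.6 TPM on HEP, a log2 fold change of -0.59 ± 0.18 (SE; limma p 0.0154). RIKEN transcript 9630013D21Rik was at 21.1, 13.9 and 24.8 TPM on HFD and 10.8, 13.2 and 9.51 TPM on HEP (-0.76 ± 0.25; p 0.0227). Gm43079 was at 36.3, 35.9 and 31.7 TPM on HFD and 21.3, 29.2 and 21.7 TPM on HEP (-0.52 ± 0.17; p 0.0228). Their adjusted p was 0.879. In all 3, HEP2 lay closest to the HFD values, and HEP2 was the HEP library with the most adipocyte and least lymphocyte transcripts. The part of that difference in tissue mix was not tested.

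Bvht, known as Braveheart from heart development in the mouse, was at 23.1, 19.3 and 18.9 TPM on HFD and 18.1, 13.6 and 13.1 TPM on HEP. Here HEP2 was as low as HEP3, and the log2 fold change was -0.44 ± 0.19 (limma p 0.0573). Gm28156 was at 30.1 to 33.7 TPM on HFD and 18.2 to 29.1 TPM on HEP. It lies across from Aoc3, whose log2 fold change of -0.44 was close to its -0.47, although the 2 share no exon bases in GENCODE M21. Gm56999 (50.1 to 57.3 TPM on HFD, 37.2 to 47.6 TPM on HEP) and Gm44386 (15.9 to 29.4 TPM and 10.6 to 14.6 TPM) complete the 7. With overlapping groups, the next smallest p in the lower direction belonged to Gm56663 (19.6 to 28.1 TPM on HFD, 14.9 to 20.1 TPM on HEP; 0.0527) and Gm4876 (38.9 to 47.4 TPM and 23.5 to 40.5 TPM; 0.057).

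Some of these levels may include reads of a neighbour, since the labels do not state whether strand was kept. Of the 125 members found in GENCODE M21 by identifier (69.8%), 60 overlap a coding gene body, and 44 share exon bases with one, 10 on the same strand and 36 on the opposite one. Gm43079 shares 559 exon bases with Acad9 on the same strand, and Acad9 had a log2 fold change of -0.05 against the -0.52 of Gm43079. Gm12940, one of the members highest in both libraries numbered 1, shares 216 exon bases with Sfpq, the gene of a paraspeckle protein, on the same strand, and their log2 fold changes were 0.29 and 0.28. It also shares 1709 exon bases on the opposite strand with Zmym1, whose log2 fold change was 0.61. Chaserr, which is known to restrain its neighbour Chd2, shares 2628 exon bases with it, with log2 fold changes of 0.49 and 0.72. For such pairs the table alone cannot say which gene a read came from.

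The largest ratios between libraries belonged to members listed at 0 in some of them. Gm56579 was at 114 TPM in HFD3 and Scarna3b, described as a small Cajal body RNA, at 97.3 TPM in HFD2, and both were listed at 0 in the other 5 libraries. Each passed the mean of 10 TPM through 1 library. Gm57032 was at 14.6 TPM in HFD2 and 54.3 TPM in HEP1 and listed at 0 elsewhere, so it too passed that mean only through 1 library, HEP1. Gm47551 was at 181, 80.0 and 0 TPM on HFD and 148, 12.8 and 64.1 TPM on HEP, Gm48275 at 9.81, 39.7 and 76.3 TPM and 202, 0 and 86.4 TPM, and Gm57169 at 0, 14.1 and 103 TPM and 105, 23.4 and 83.4 TPM. A value listed at 0 beside values near 100 TPM can be a failed estimate, so the fitted fold changes of these 6 members, given only among the limits, are no measure of a change. Over all members, the highest library exceeded the lowest more than 4-fold on TPM + 1 in 40 (22.3%), beside 2082 of all genes (13.5%).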

How the data were processed

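Per the labels' protocols, TRIzol RNA of the 6 samples was made into TruSeq RNA libraries from 1 ug of RNA, selected for 300 bp and amplified over 15 cycles. The authors deposited TPM values per gene, estimated before deposit. Tools that the authors used, per the submitters' processing notes, include RSEM, StringTie, DESeq2, HISAT2 and fastp, with no version or role. Not given in the sources used here: build, annotation, strand and RNA selection. TPM shares a fixed total (1000000), so a rise of abundant transcripts lowers all other values, and reads of near-identical copies are divided by estimate. TPM keeps no depth, so no counting intervals are given.

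Samples were grouped by title. Genes whose mean reached 1 TPM were compared as log2(TPM + 1), two-sided, by limma 3.58.1 under R 4.3.3, its prior variance following mean level, with Benjamini-Hochberg adjustment over 15446 genes and a threshold of 0.05. Named were the 12 most abundant members, the 6 with the smallest p in each direction, those whose groups did not overlap, the 6 with the largest ratio between libraries and those on the host and nuclear lists. Gm56626 and Gm48942 were added to complete the members at an unadjusted limma p under 0.05. Others are said to be named after their values were seen, or stand in the neighbour and observation paragraphs as such examples. The members and lists were chosen with earlier results of these data known. Of the members, 73 were matched by symbol to RefSeq promoters (GRCm38.p6) and 125 by identifier to GENCODE M21, used for overlaps and for the Bc1 transcript. Other scalings, pseudocounts, filters, weights, a replicate block and leaving out libraries were tried.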

Additional observations from a re-analysis of the deposited data

How the results depend on the processing

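At adjusted p under 0.05 in limma, members called stayed at 0 in each alternative run, and genes called stayed at 0 except for 1 gene higher without HEP2 (range 0 to 1 over leaving out each library). The number of members was 339 at a mean of 5 TPM and 94 at 20 TPM. Members with a higher HEP mean numbered 95 to 131 when each library was left out in turn, 106 with sample quality weights, 96 without both libraries numbered 1 and 82 of 139 without copies and retroelement matches (the last 2 chosen after seeing the data). Sample quality weights gave 82 members at an unadjusted p under 0.05 (45.8%, all genes 32.9%).

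Of 884 log2 fold changes of 52 named members, 847 kept their direction and 37 did not, and 37 members never reversed. The cause was not tested. With quantile normalization the reversed values were 0.0333 for ENSMUSG00000121655, 0.0193 for Ubb-ps, -0.0655 for Snhg6 and -0.0151 for Peg13. With sample quality weights they were 0.0225 for Ubb-ps, 1.35 for Gm48275 and -0.545 for Gm57032. Snhg6 was at -0.00864 with median-of-ratios scaling and -0.0017 without mitochondrial genes. Without both libraries numbered 1, Norad was at -0.0509, Snhg6 at -0.0657, Peg13 at -0.13 and Gm57032 at -1.98. Leaving out each library in turn gave ranges across 0 for Neat1 (-0.62 to 0.552), Malat1 (-0.553 to 0.762), ENSMUSG00000121655 (-0.129 to 0.1), Ubb-ps (-0.0726 to 0.0117), Gm47551 (-1.25 to 2.51), Gm48275 (-1.79 to 2.04), Mir22hg (-0.436 to 0.0824), Snhg6 (-0.0188 to 0.134), Peg13 (-0.0421 to 0.209), Snhg20 (-0.028 to 0.607), Firre (-0.531 to 0.288) and Gm57032 (-1.32 to 1.93), and ranges up to 0 for Gm56579 (-3.42 to 0) and Scarna3b (-3.31 to 0).

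Deviations of same-numbered libraries correlated at -0.355, 0.368 and 0.651. HFD2 correlated best with HEP2 and HFD3 with HEP3, but HFD1 correlated best with HEP2 (0.482) and HEP1 with HFD3 (0.503). Whether the shared numbers pair the libraries was thus not settled. The replicate block left 0 genes higher, 0 lower and 0 members called, with 115 members higher in HEP and a median of 0.162 as without it, and raised members at an unadjusted p under 0.05 from 12 to 20 (all genes from 279 to 576). It lowered the standard error from 0.675 to 0.127 for Neat1 and from 0.818 to 0.132 for Malat1.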

Other observations

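The values below were picked out after they had been seen and belong to no comparison above. Erdr1y was at 229 TPM in HEP1 and at 31.2 to 60.6 TPM in the other 5 libraries, and its near-copy Erdr1x at 47.7 TPM in HEP1 and 2.20 to 22.0 TPM elsewhere. Gt(ROSA)26Sor, the transcript of the Rosa26 locus used for broad transgene expression, was at 27.4, 18.8 and 28.6 TPM on HFD and 44.8, 21.4 and 35.0 TPM on HEP. Its order, with HFD3, HEP1 and HEP3 highest, was that of the lymphocyte markers, although the locus is known for even expression across tissues. Gm42428, with a retroelement match, was at 47.1, 14.2 and 95.8 TPM on HFD and 165, 18.97 and 255 TPM on HEP, again highest in those 3 libraries. Gm26740, of the same class, was at 2.53, 4.39 and 32.7 TPM on HFD and 71.8, 10.6 and 55.5 TPM on HEP, and its HEP2 value was above HFD1 and HFD2.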
